A study of Mus musculus with 14 samples.

Results

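The genes described here encode the collagens, laminins, nidogens, fibulins and fibronectin of the extracellular matrix, with some enzymes and binding proteins that share their titles. They were chosen by title alone: a UniGene cluster, a group of transcript sequences taken as 1 gene, belonged when its title began with Procollagen, Collagen, Laminin, Fibulin, Fibronectin 1 or Nidogen. This gave 67 members of 22221 genes. The data are counts of 20-base signature tags from C57BL6 mice, from 7 tissues with 1 male and 1 female library each: stomach, spinal cord, liver, hippocampus, parotid gland, bone marrow and pancreas. All animals carry the same strain label and no treatment, and the number of animals per library is not stated in the labels. By its label the male liver library came from the left lobe and the female one from the right lobe, so sex and lobe cannot be told apart in liver.

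Collagens are trimers wound into a triple helix. Fibrillar collagens, types I and III above all, form the load-bearing fibres laid down by fibroblasts and smooth muscle, and fibril-associated collagens decorate those fibres. Basement membranes, the sheets beneath epithelia and around vessels, muscle and nerve, rest on a laminin network and a type IV collagen network that nidogens link. Fibronectin is made both by connective tissue cells and, as the plasma form, by hepatocytes.

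The label holds for most members but not for all of them. By title, 10 members encode fibrillar collagens, 11 laminin chains, 9 fibril-associated collagens, 6 clusters of type IV collagen, 3 chains of type VI collagen, 3 network collagens of types VIII and X, 4 transmembrane collagens, 2 multiplexins (types XV and XVIII), 3 fibulins, 2 nidogens, 1 type VII collagen and 1 fibronectin. A further 8 members are enzymes or enhancers of collagen assembly. The remaining 4 are Colq (the collagen tail that anchors acetylcholinesterase), Cthrc1 (a secreted collagen-repeat protein), Ccbe1 (a secreted factor of lymphatic growth) and Cert1. Cert1 is a ceramide transfer protein whose title names it only as a binding partner of a type IV chain, so it is no matrix chain.

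Library totals ran from 2194028 to 3834568 counts, and the members together held 34884 of 45337175 counts. Levels are given in CPM, tag counts scaled so that the counts assigned to genes sum to 1000000 in each library. Where no tag was counted, a level of up to 3 counts, or 0.867 to 1.56 CPM by library, remains possible, counting error alone considered. Each library showed the defining genes of its tissue. Pancreas enzyme markers reached 366346 CPM in male and 286878 CPM in female pancreas, and neuron markers reached 5086 CPM in male and 5475 CPM in female spinal cord. The bone marrow, hippocampus and spinal cord libraries shared 528 tags with at least 20 counts in each of the 6 libraries and 0 in the other 8. None of these tags is among those counted for the members, and tissue and this split of the libraries cannot be told apart.

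A gene is read through the bases next to its DpnII site, GATC, and most members rest on a single dominant tag. The tags below are shown because the comparisons that follow are counts of these sequences. Each is written 5′ to 3′ as deposited, with the DpnII site in capitals.
Col3a1, chromosome 1: GATCaagaatttggtgtgga
Col1a1, chromosome 11: GATCgagctcagaggcgaag
Lamc1, chromosome 1: GATCagacctgagagcccca
Col6a1, chromosome 10: GATCcaagccagctatctct
Fn1, chromosome 1: GATCaatagggaaacacagg
Col18a1, chromosome 10: GATCctgttcagagaaccca
Col18a1, second tag: GATCtctatagcatcgtgcg
Col9a3, chromosome 2: GATCttctaacccttcaaaa
Col11a1, chromosome 3: GATCagaaccagaagtttgg
The tag shown carried 97.4% of the counts of Fn1 and 99.3% of those of Col6a1. It carried 85.3% of those of Col3a1 and 76.4% of those of Col1a1. Col18a1 had 2 main tags, with 59.0% and 37.0% of its counts.

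In plain CPM the members' summed level was highest in stomach and lowest in pancreas. They summed to 2217 CPM in male and 2824 CPM in female stomach. Spinal cord came next with 1320 CPM in the male and 1438 CPM in the female library, beside liver with 998 and 1495 CPM. Liver and spinal cord overlapped. Hippocampus had 888 CPM in the male and 796 CPM in the female library, and parotid gland 710.0 and 732 CPM. Bone marrow had 442 CPM in the male and 441 CPM in the female library, and pancreas 87.9 and 127 CPM. In bulk tissue, fewer cells of a type and less RNA per cell cannot be told apart. The 10 most abundant genes took 76.5% to 80.4% of the counts assigned to genes in the pancreas and parotid gland libraries. Their part in the low sums was not tested. After TMM scaling, the scaling of the tests, which sets the bulk of genes level between libraries, stomach still had the highest sum, at 1630 CPM in the male and 2275 CPM in the female library, but pancreas no longer had the lowest. Pancreas then had 598 and 692 CPM, above bone marrow with 296 and 311 CPM, hippocampus with 395 and 353 CPM and spinal cord with 549 and 580 CPM.

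The families were spread over the tissues in different ways in plain CPM. Fibrillar collagens summed to 1129 ± 288 CPM in stomach (SD, n = 2), against 450.4 ± 64.8 CPM in spinal cord, 386 ± 18.6 CPM in parotid gland and at most 102 ± 5.52 CPM in the other 4 tissues. Laminins followed another order, with 486 ± 102 CPM in stomach, 157 ± 0.293 CPM in spinal cord and 132 ± 17.8 CPM in hippocampus (SD, n = 2 each). Type IV collagen had 187 ± 11.7 CPM in stomach, 89.2 ± 0.992 CPM in spinal cord and 69.1 ± 10.8 CPM in hippocampus. Fibril-associated collagens had 58.5 ± 21.3 CPM in hippocampus, 49.3 ± 0.738 CPM in spinal cord and 43.4 ± 6.26 CPM in stomach. The hippocampus libraries overlapped those of spinal cord and of stomach.

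The order of the tissues behind stomach turned with the scaling. After TMM scaling, fibrillar collagens stood at 715 CPM in male and 671 CPM in female parotid gland, above 168 and 200.1 CPM in spinal cord, and pancreas had 187 and 243 CPM. Male stomach, at 680.2 CPM, then fell within the range of the parotid libraries, while female stomach had 1073 CPM. Laminins after TMM scaling had 136 and 147 CPM in parotid gland and 108 and 120.3 CPM in pancreas, above 65.0 and 63.2 CPM in spinal cord and 64.4 and 53.1 CPM in hippocampus. Stomach kept the highest laminin sum, at 305 and 450 CPM. Orders of levels given from here on are in plain CPM unless TMM is named.

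**Figure D1:**
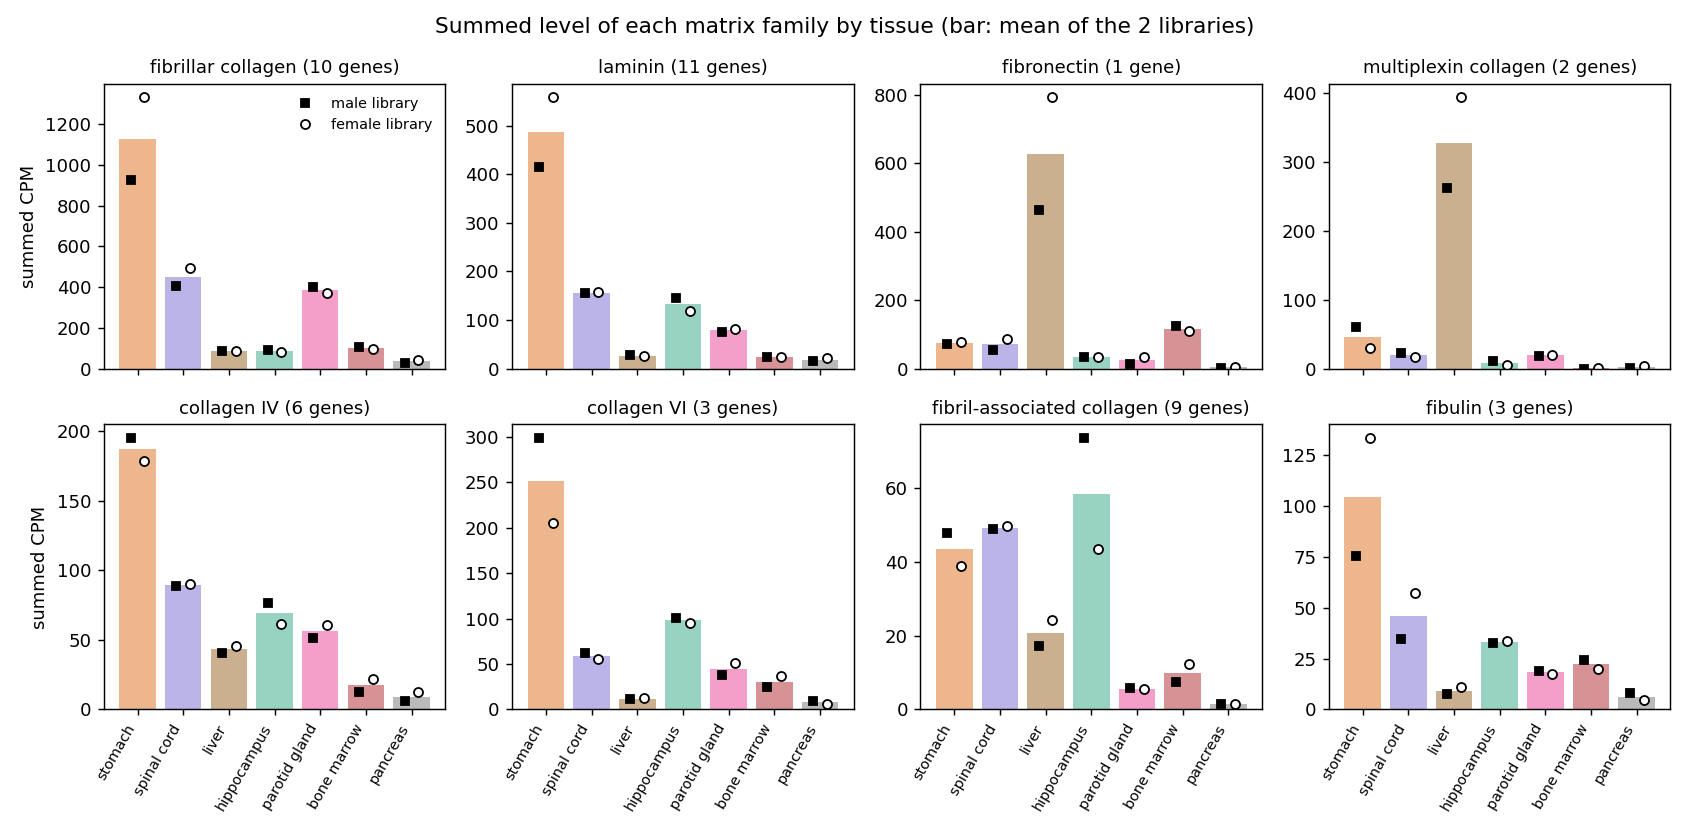
Summed plain CPM (vertical axes, linear, from 0) of 8 matrix families in the 7 tissues (horizontal axes), with bars for the mean of 2 libraries, squares for the male and circles for the female library. Fibrillar collagens and laminins peak in stomach, fibronectin and the multiplexins in liver, and fibril-associated collagens in hippocampus, spinal cord and stomach.

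Of the 67 members, 52 had enough counts to be tested and 15 did not. The tests are edgeR quasi-likelihood F tests across 14682 genes with Benjamini-Hochberg adjustment, and folds are log2 ± SE. A call needs an adjusted p under 0.05 and a change of at least 2-fold. Each tissue was set against the mean log level of the other 6, after TMM scaling. TMM raised the effective levels in pancreas and parotid gland and lowered them in the nervous system, so a fold can be positive where the CPM is below the plain mean of the other tissues. All 52 tested members differed among the 7 tissues at an adjusted p under 0.05, while 80.7% of all genes tested did so. The 15 untested members had 1 to 69 counts each over the 14 libraries. They were Lama1, Lama3, Lamc3, Col4a6, 2 clusters of Col4a4, Col8a2, Col9a1, Col10a1, Col19a1, Col20a1, Col22a1, Col25a1, P4ha3 and Colq.

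In stomach 31 of the 52 tested members were called higher than in the other tissues, where 17.9% of all genes were. None was called lower, where 3.92% of all genes were, and 34 members had an unadjusted p under 0.05. The median member was 1.73 higher on the log2 scale, beside 0.17 for all genes. The higher members included both chains of type I collagen, type III collagen, 3 of the 3 type VI chains, 3 of the 3 tested type IV clusters, and 6 of the 8 tested laminin chains. In a fit without the female stomach library 25 members were higher and 4 lower, the lower ones being Cert1, Nid2, P4ha1 and Pcolce2, and without the male library 29 were higher and 1, Plod1, lower. Of the 31, 16 were called higher in all 3 fits. Without the female library Col5a2 and Col8a1 turned to −0.52 and −0.70 on the log2 scale. In the same fit Lama5 fell to 0.49, Col6a3 to 0.52 and Col4a1 to 0.83, each under 2-fold. Without the male library Col4a2 fell to 0.88, also under 2-fold, and Col6a2 to 1.83. The other type IV and VI members held, with Col4a5 at 5.58 without the female and 4.29 without the male library, and Col6a1 at 3.16 and 2.52.

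Col3a1, the chain of type III collagen that is abundant in distensible organs, had 417 CPM in male and 713 CPM in female stomach. The other 12 libraries had 2.95 to 216 CPM, with a median of 29.6 CPM, so the groups did not overlap in plain CPM. After TMM scaling both parotid libraries stood above male stomach for this gene. The log2 difference was 4.06 ± 0.23 (edgeR adjusted p = 8.5e-11). Col1a1, a chain of type I collagen, had 328 CPM in male and 154 CPM in female stomach, against 4.90 to 151 CPM in the other 12 libraries with a median of 11.3 CPM. Here too the order turned after TMM scaling, with female stomach below both parotid libraries. The log2 difference of Col1a1 was 3.13 ± 0.28 (edgeR adjusted p = 6.8e-08). Its partner Col1a2 had 101 and 114 CPM and overlapped spinal cord, which reached 121 CPM in the female library.

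Members of the pericellular matrix and basement membranes were also higher. Col6a1, a chain of the beaded filaments around cells, had 269 CPM in male and 166 CPM in female stomach, against at most 96.1 CPM, in male hippocampus (log2 2.86 ± 0.24, edgeR adjusted p = 3.4e-08). Lamc1, the laminin gamma chain shared by most basement membranes, had 240 CPM in male and 205 CPM in female stomach. Elsewhere it lay between 3.02 and 30.4 CPM, with a median of 14.4 CPM, and the log2 difference was 3.49 ± 0.26 (edgeR adjusted p = 5.0e-09). Fbln1, a fibulin of elastic fibres and basement membranes, had 56.7 CPM in male and 39.0 CPM in female stomach, against 0 to 9.77 CPM elsewhere. Col15a1, a multiplexin of muscle and vessel basement membranes, had 43.2 and 17.8 CPM, against at most 13.9 CPM in male spinal cord. This order is in plain CPM. After TMM scaling the sum of the 2 multiplexins, Col15a1 and Col18a1, was 44.8 CPM in male and 24.1 CPM in female stomach. In parotid gland that sum was 34.1 CPM in the male and 35.2 CPM in the female library, above female stomach.

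Members that anchor epithelia to their basement membrane were also higher in stomach. Lamb3, a beta chain of the laminin under stratified and glandular epithelia, had 42.7 CPM in male and 13 CPM in female stomach, against 0 to 3.18 CPM elsewhere. The groups did not overlap, and the log2 difference was 4.09 ± 0.43 (edgeR adjusted p = 5.1e-07). Col17a1, the transmembrane collagen of hemidesmosomes, was chosen after its values were seen. Hemidesmosomes are the rivets of epithelial cells, and the gene had 20.8 and 8.23 CPM in stomach, against 1.73 and 3.22 CPM in parotid gland and at most 0.395 CPM in the other 10 libraries. With DESeq2 its adjusted p was 0.336. Lama3, an alpha chain of the same laminin, was too low to be tested, with 69 counts in all and 26 of these in female stomach. The alpha chains were otherwise led by Lama5, a broad epithelial and vascular chain, at 18.7 CPM in male and 153 CPM in female stomach.

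Levels in stomach stood beside smooth muscle markers (9 genes found of 10) at 7345 CPM in male and 10468 CPM in female stomach, against 4.15 to 139 CPM in the other 12 libraries. Actg2 alone made 764 CPM of the male and 6460 CPM of the female stomach sum. Tagln was also higher in the female library, at 821 and 1056 CPM. The rest, Acta2, Myh11, Cnn1, Des, Smtn, Lmod1 and Myocd, were higher in male stomach, with Acta2 at 3491 CPM in male and 2055 CPM in female. All 10 fibroblast markers were found, at 395 and 388 CPM in stomach, against 30.9 to 320 CPM elsewhere. The part of either cell type in these differences was not tested. Genes from other matrix lists were also called in stomach, where 17.9% of all genes were higher and 3.92% lower. The median log2 of all genes there was 0.17. Of 29 tested genes for elastic fibres and matrix glycoproteins, 20 were higher and 1 lower, with a median log2 of 2.38. Postn, a matricellular protein, was one of them, with 67.6 ± 4.34 CPM (SD, n = 2). Of 18 matrix receptors, 11 were higher, among them Itgb4, the integrin chain of hemidesmosomes, at 42.8 ± 21.9 CPM. Of 13 other genes for collagen processing, 7 were higher and 1 lower, among them Serpinh1, the collagen chaperone, at 72.8 ± 47.1 CPM. Among 18 proteoglycans 8 were higher and 2 lower, and among 14 metalloproteinases and inhibitors 4 were higher.

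**Figure D2:**
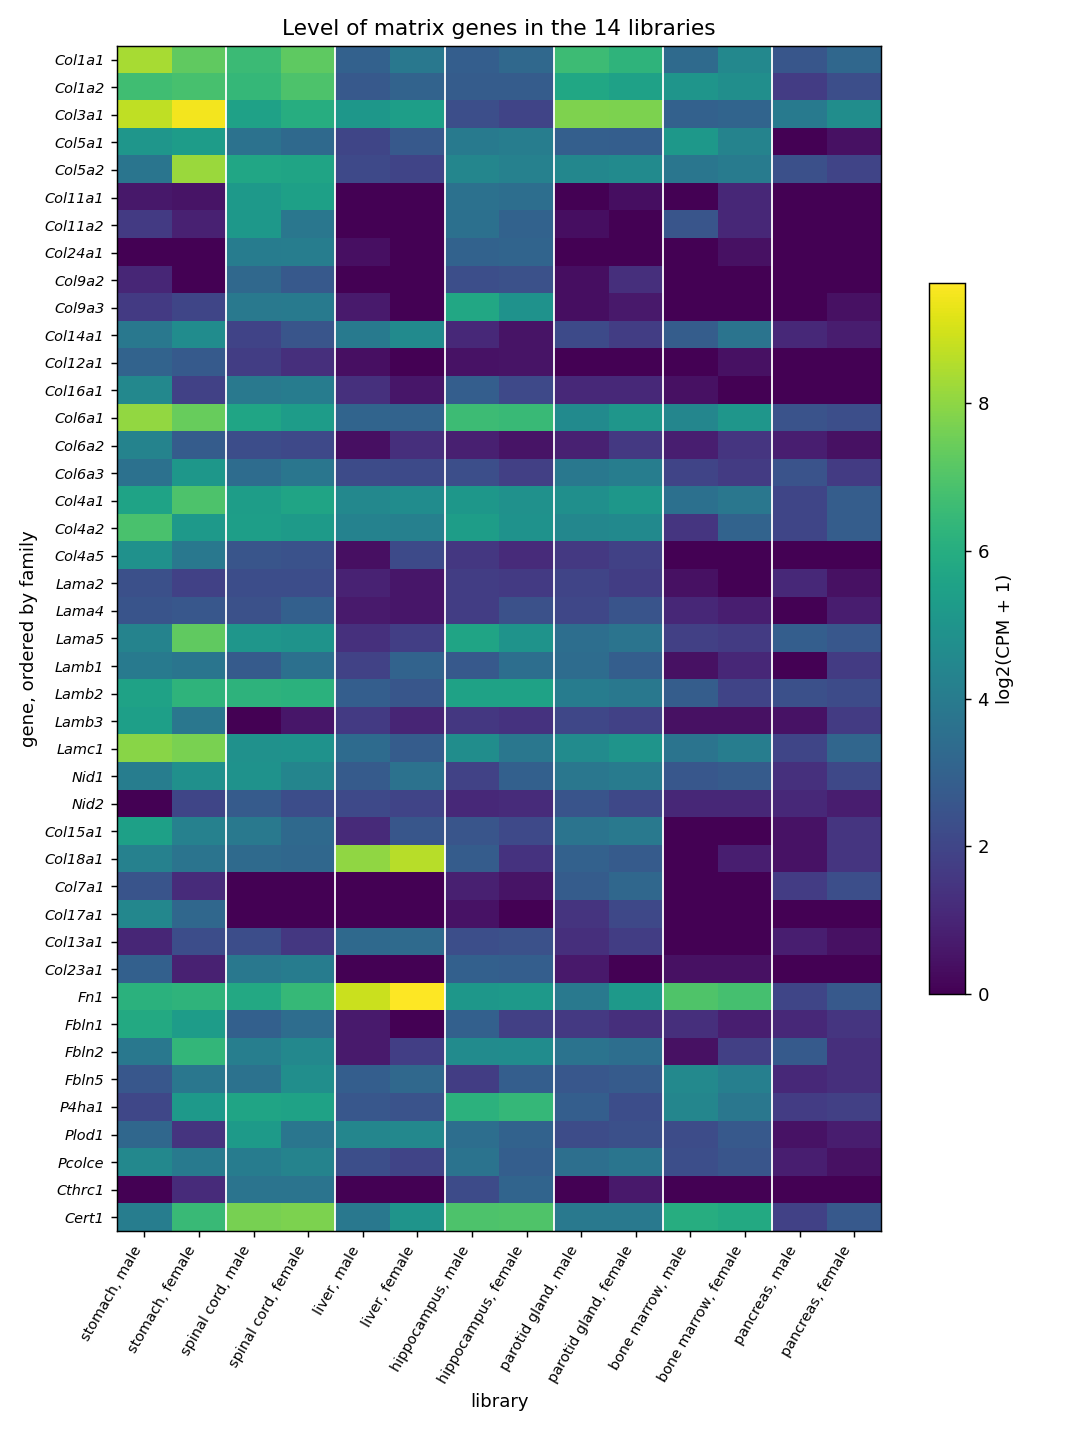
Level of members as log2(CPM + 1) (colour scale) in the 14 libraries (columns, grouped by tissue with the male library first), with genes as rows ordered by family. Stomach is bright for Col3a1, Col6a1 and Lamc1, liver for Fn1 and Col18a1, and the Col9, Col11 and Col24 rows are lit in hippocampus and spinal cord.

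In parotid gland 23 members were called higher, where 11.1% of all genes were, and none lower, where 3.87% of all genes were, with 31 members at an unadjusted p under 0.05. Col7a1, which forms the anchoring fibrils beneath epithelia, had 6.07 CPM in the male and 8.19 CPM in the female library. It had 2.26 and 3.98 CPM in pancreas, 4.68 and 1.30 CPM in stomach, and at most 0.791 CPM in the other 8 libraries. Its log2 difference was 5.4 ± 0.59 in parotid gland (edgeR adjusted p = 5.9e-06). The order of the 2 glands turned with the scaling, since after TMM its level was 10.9 and 14.7 CPM in parotid gland and 15.4 and 21.7 CPM in pancreas. In plain CPM Col3a1 had 216 and 209 CPM and Col1a1 95.6 and 76.6 CPM, with stomach above both and spinal cord overlapping it for Col1a1. With library totals in place of TMM, 10 members were higher, where 5.10% of all genes were, and 4 lower, where 23.7% were. Without either parotid library 11 were higher and 0 lower. Skeletal muscle markers, 9 genes found of 11, stood at 293 CPM in the male and 231 CPM in the female parotid library. Adipose markers, 8 genes found of 9, stood at 568 and 1017 CPM there, against 75.0 to 479 CPM elsewhere. Bone and cartilage markers, 13 genes found of 14 and 5 of them at 0 in this tissue, stood at 482 and 301 CPM, of which Bglap alone made 457 and 276 CPM. Ibsp, a bone sialoprotein, was at 0 there, and Acan, the main cartilage proteoglycan, at 0.289 and 0 CPM. The part of muscle and fat cells in the parotid levels was not tested.

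Pancreas had the lowest summed CPM, and its calls depended on the scaling. After TMM scaling 4 members were higher, where 6.33% of all genes were, and 1 was lower, where 3.24% were. The higher members, named after their values were seen, were Col3a1, Col6a3, Col7a1 and Ccbe1. With library totals 1 member was higher, where 1.31% of all genes were, and 29 were lower, where 71.1% were, and Col3a1 turned from 1.90 to −1.11 on the log2 scale. Col6a3 and Ccbe1 changed sign too, at −1.03 and −0.06. Col7a1 kept its direction, at 6.05 after TMM and 3.23 with library totals. Fn1 was lower under both, with 3.02 CPM in male and 5.42 CPM in female pancreas, against 13.9 to 792 CPM elsewhere with a median of 73.7 CPM. Its TMM difference was −1.29 ± 0.38 on the log2 scale (edgeR adjusted p = 0.039), and the adjusted p was 0.0565 with DESeq2 size factors and 0.0531 with limma voom. It was 0.276 without the male and 0.286 without the female pancreas library. Without either stomach library 7 members were higher and 2 lower in pancreas.

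The 2 exocrine glands differed in the fibre-forming chains. Against parotid gland, 4 members were lower in pancreas, where 3.47% of all genes were, and 0 were higher, where 2.84% were. Col3a1 had 14.7 and 25.7 CPM in pancreas, against 216 and 209 CPM in parotid gland (log2 −1.69 ± 0.38, edgeR adjusted p = 0.0092). Col1a1 had 4.90 and 8.32 CPM in pancreas, against 95.6 and 76.6 CPM in parotid gland (log2 −1.99 ± 0.49, edgeR adjusted p = 0.016). Col1a2 followed with −2.22 ± 0.42 and Pcolce, the enhancer of procollagen cleavage, with −2.59 ± 0.73. In these chains the pancreas libraries lay below both parotid libraries. With library totals 28 members were lower, where 46.4% of all genes were, and 0 higher, where 1.50% were. The calls rested on few of them, since leaving out female pancreas left 1 member, leaving out male pancreas left 0 and leaving out male parotid gland left 1.

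The balance of type III and type I collagen differed between organs within each library, where no scaling between libraries enters. Counts of Col3a1 exceeded those of Col1a1 in all 8 libraries of stomach, liver, pancreas and parotid gland, and fell below them in all 6 of spinal cord, hippocampus and bone marrow. Liver had 111 counts of Col3a1 against 23 of Col1a1 in the male library, and 82 against 27 in the female library. Spinal cord ran the other way, with 94 against 196 counts in the male and 128 against 309 in the female library. Hippocampus rested on few counts, with 10 against 16 in the male and 7 against 20 in the female library. Male bone marrow was close, with 19 against 25 counts. On the most abundant tag alone, male hippocampus had 9 counts of each gene, so its order depended on the minor tags. Counting error in these orders was not tested. The ratio of Col3a1 to Col1a1 lay between 1.27 and 4.83 in the first set and between 0.35 and 0.76 in the second. This division is also that of the libraries with the 528 shared tags, so tissue and library set cannot be told apart here. Each tag has its own capture rate, so a ratio of 1 does not mark equal amounts of RNA.

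**Figure D3:**
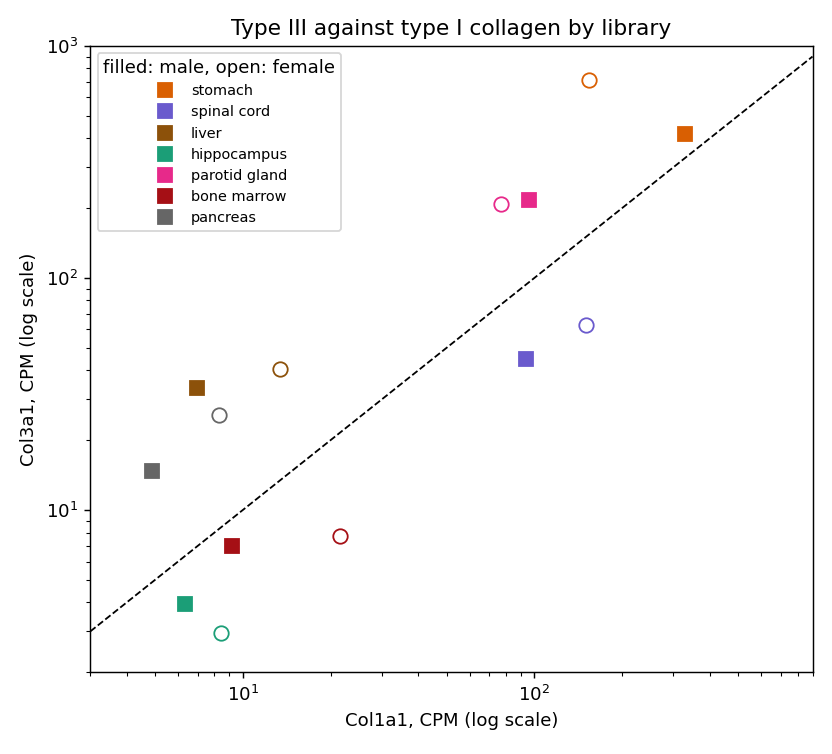
Col3a1 (vertical, log scale) against Col1a1 (horizontal, log scale) in CPM for the 14 libraries, coloured by tissue, with filled squares for male, open circles for female and a dashed line of equal CPM. Stomach, parotid gland, liver and pancreas lie above the line, and spinal cord, hippocampus and bone marrow below it.

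In liver the median member lay at −0.997 on the log2 scale, beside −0.16 for all genes, but Fn1 and Col18a1 had their highest levels there. Fn1 had 462 CPM in male and 792 CPM in female liver, against 3.02 to 124 CPM in the other 12 libraries with a median of 45.7 CPM (log2 4.04 ± 0.23, edgeR adjusted p = 3.1e-11). Col18a1, the multiplexin whose C-terminal fragment is endostatin, had 262 CPM in male and 390 CPM in female liver. The other libraries lay between 0 and 17.7 CPM, with a median of 5.89 CPM, and the log2 difference was 6.52 ± 0.29 (edgeR adjusted p = 1.2e-12). Both of its main tags were highest in liver, with 559 counts in male and 403 in female liver for the first and 276 and 350 for the second, against at most 25 and 10 counts in any other library. Col13a1, a transmembrane collagen, was low in absolute terms but also highest in liver, at 8.77 and 8.93 CPM, against at most 4.21 CPM elsewhere.

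In all, 6 members were higher in liver, where 18.5% of all genes were, and 11 were lower, where 10.1% were. The other 3 higher members, named after their values were seen, were Plod1, a lysyl hydroxylase, Col14a1, a fibril-associated collagen, and Col27a1, a fibrillar collagen. The lower members were Col1a1, Col1a2, Col5a2, Col6a1, Col8a1, Fbln1, Fbln2, P4ha1 and the laminin chains Lama5, Lamb2 and Lamc1. Col6a1 had 7.56 CPM in male and 7.44 CPM in female liver, against 3.98 to 269 CPM elsewhere with a median of 35.9 CPM (log2 −2.36 ± 0.38, edgeR adjusted p = 6.0e-05). Col1a2 was at −2.05 ± 0.34 and Lamb2, the beta chain of muscle and nerve basement membranes, at −1.77 ± 0.39 on the log2 scale. Without the male liver library 5 members were higher and 6 lower, without the female one 7 and 5, and in the fit without the male library the call for Col1a1 was lost (adjusted p = 0.0529). Stellate cell markers, the list for the fibre-producing cells of liver, summed to 128 CPM in the male and 257 CPM in the female library. The same list, which holds the muscle gene Des, reached 949 CPM in male and 372 CPM in female stomach, and its part in the liver levels was not tested. Of 18 matrix receptors 7 were higher and 3 lower in liver, among them the syndecans Sdc1, Sdc2 and Sdc4, with Sdc2 at 136 ± 48.1 CPM (SD, n = 2).

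In spinal cord 12 members were higher, where 27.3% of all genes were, and 6 lower, where 8.68% were, so the share of higher members was not above that of all genes. With library totals 36 were higher, where 67.2% of all genes were, and 1 lower, where 1.06% were. That scaling put the median gene at 1.69 on the log2 scale, against 0.25 after TMM. Without the male spinal cord library 8 were higher and 0 lower. The lower members included Lamb3, Ccbe1, Col14a1, Fn1 and Lamc1, of which Fn1 and Lamc1 changed sign with library totals, at 0.46 and 0.49. Several of the higher members were near 0 outside the nervous system.

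Col11a1, a minor fibrillar chain that regulates fibre diameter, had 36.3 CPM in male and 43.0 CPM in female spinal cord, against 0 to 11.1 CPM elsewhere with a median of 0.146 CPM (log2 5.93 ± 0.55, edgeR adjusted p = 2.0e-07). Its partner Col11a2 had 33.9 and 13.2 CPM, against at most 10.7 CPM, in male hippocampus. Col24a1, another minor fibrillar chain, had 15.3 and 16.1 CPM, against 7.12 and 7.58 CPM in hippocampus and at most 0.366 CPM in the other 10 libraries. These chains shared an order, with spinal cord first and hippocampus second. Col23a1, a transmembrane collagen, had 13.4 and 15.6 CPM, and Cthrc1 had 12 and 12.2 CPM in spinal cord. Col9a2, a chain of the fibril-associated type IX collagen, had 8.61 and 5.37 CPM, against 3.95 and 4.21 CPM in hippocampus. Its call was lost without the male spinal cord library (adjusted p = 0.0843) and with DESeq2 (adjusted p = 0.0586).

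Markers of other cell types were also counted in the spinal cord libraries. Schwann cell markers, 9 genes found of 10, summed to 874 CPM in male and 855 CPM in female spinal cord, against 0.754 to 63.6 CPM elsewhere. Meninges markers, 8 genes found of 9, were at 2608 and 2156 CPM, against 1467 and 1420 CPM in hippocampus and at most 196 CPM elsewhere. Ptgds alone made 2373 and 1958 CPM of the spinal cord sums. Igf2 had 101 and 81.1 CPM there, Foxc1 81.8 and 64.5 CPM, Ogn 40.2 and 43.5 CPM and Slc6a13 7.65 and 6.84 CPM. Some of these were higher outside the nervous system. Foxc1 had 181 CPM in male and 142 CPM in female parotid gland. Slc6a13 had 80.4 CPM in male and 133 CPM in female liver, and Ogn had 91.9 CPM in female stomach. In spinal cord Crabp2, Slc22a6 and Slc13a4 were at 0.488 to 1.91 CPM. Blood and marrow markers, 6 genes found of 7 and none at 0, were at 7570 CPM in male and 7238 CPM in female spinal cord, against 82.1 to 962 CPM in the other libraries outside bone marrow. Among them Ngp, a neutrophil granule protein, had 132 and 195 CPM, against 0 in those other libraries. Skeletal muscle markers were at 427 and 219 CPM. Bone and cartilage markers, 13 genes found of 14 and 1 of them at 0, were at 94.7 and 156 CPM, with Acan at 3.83 and 9.77 CPM and Matn1, a cartilage matrilin, at 0.956 and 0.488 CPM. Their part in the collagen levels was not tested.

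In hippocampus 10 members were higher, where 28.0% of all genes were, and 14 were lower, where 12.9% were. With library totals 23 were higher, where 59.6% of all genes were, and 5 lower, where 3.24% were. Col9a3, another type IX chain, had 53.8 CPM in male and 29.1 CPM in female hippocampus, against 13.9 and 14.7 CPM in spinal cord and at most 3.03 CPM in the other 10 libraries (log2 4.59 ± 0.44, edgeR adjusted p = 1.3e-07). Its order was the opposite of that of Col9a2 and the type XI chains, which had spinal cord first. P4ha1, a catalytic subunit of prolyl 4-hydroxylase, had 71.2 and 83.8 CPM, against 2.26 to 48.8 CPM elsewhere. A further P4ha1 tag, left uncounted, had 269 and 217 counts in male and female hippocampus, and 27 and 1182 in male and female stomach. Ccbe1 had 10.3 and 13.5 CPM, against at most 8.09 CPM in male parotid gland, but its call was lost without either hippocampus library (adjusted p = 0.173 without the male and 0.0969 without the female library).

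The chains of types I and III collagen were low in hippocampus. Col3a1 had 3.95 CPM in male and 2.95 CPM in female hippocampus, below the 6.97 CPM of the lowest other library (log2 −5.36 ± 0.44, edgeR adjusted p = 9.1e-09). Col1a1 had 6.33 and 8.43 CPM and Col1a2 5.93 and 5.90 CPM. Col6a1 stood at 96.1 and 92.3 CPM, second to stomach, while its partners Col6a2 and Col6a3 had at most 0.791 and 3.95 CPM. The ratio of Col6a1 to Col6a3 counts was 24.3 in the male and 36.5 in the female hippocampus library, against 1.70 and 2.04 in parotid gland and 24.6 and 4.96 in stomach. Without the female hippocampus library 6 members were higher and 9 lower. Col8a1, a network collagen, Col11a1, Col11a2, Col24a1, Col23a1, Col9a2 and Cthrc1 completed the higher members.

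**Figure D4:**
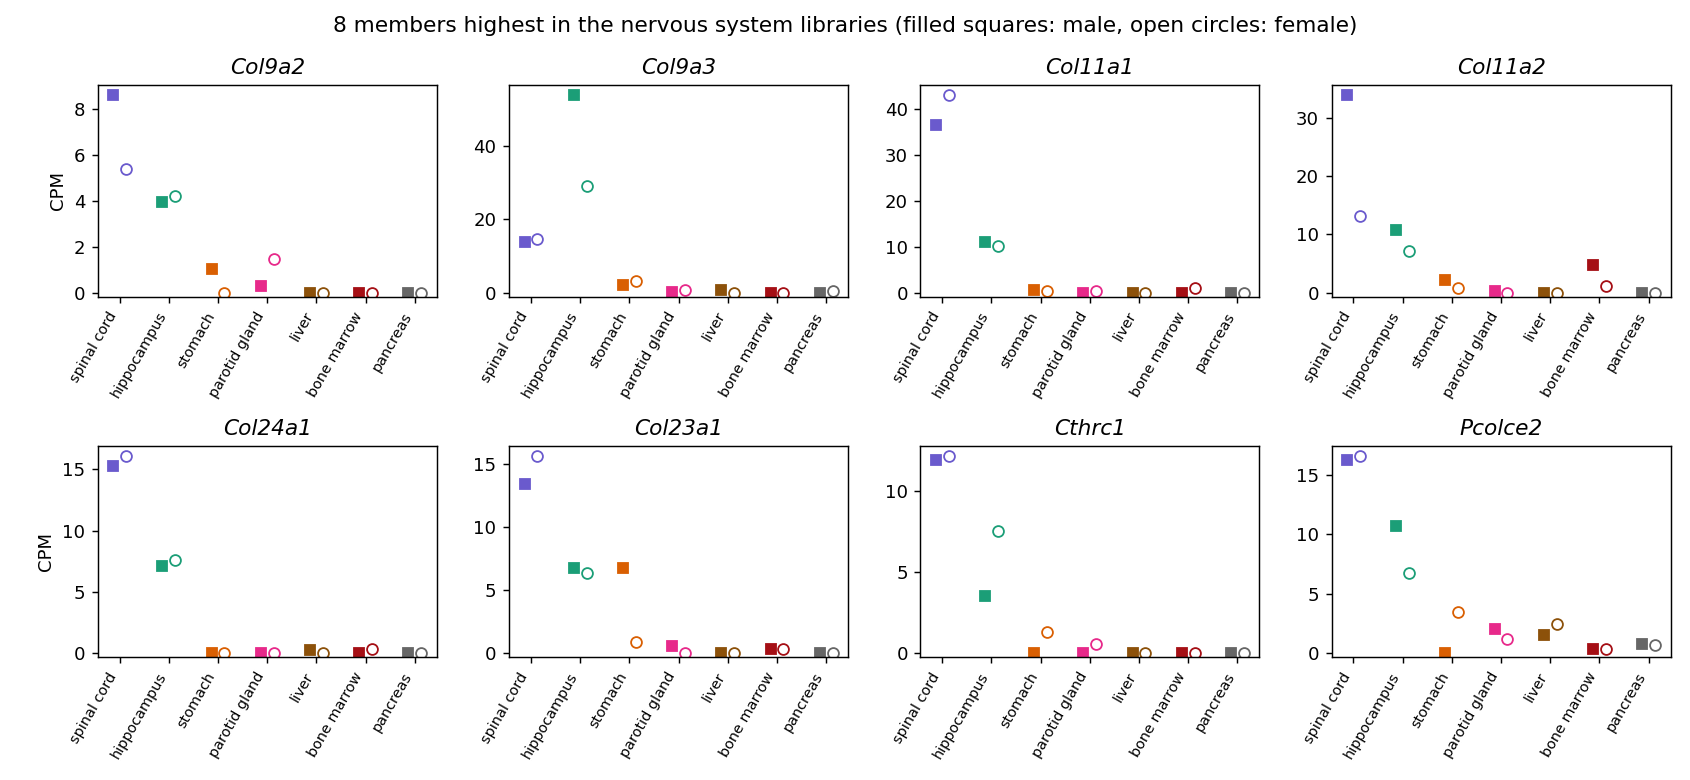
CPM (vertical axes, linear) of 8 members in the 7 tissues (horizontal axes), with filled squares for male and open circles for female libraries. Col9a3 is highest in hippocampus, the other 7 are highest in spinal cord, and liver, bone marrow and pancreas are at or near 0 for most of them.

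Set against spinal cord directly, hippocampus had 2 members higher, where 3.26% of all genes were, and 6 lower, where 3.13% were. Col1a2 had 5.93 and 5.90 CPM in hippocampus, against 84.2 and 121 CPM in spinal cord (log2 −3.96 ± 0.40, edgeR adjusted p = 1.7e-05). Col1a1 differed by −3.90 ± 0.51 and Col3a1 by −3.78 ± 0.45 on the log2 scale. Nid1, Col5a3 and Fbln5 were also lower, and Ccbe1 was higher, with 10.3 and 13.5 CPM in hippocampus, against 0 and 1.95 CPM in spinal cord. Without the male spinal cord library 3 members were called lower and 0 higher, and without the male hippocampus library 4 were lower and 1 higher. Without either stomach library 14 were lower and 4 higher. Col4a1, a chain of most basement membranes, was not called between them, at 33.6 and 28.2 CPM in hippocampus, against 40.2 and 48.8 CPM in spinal cord.

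Small leucine-rich and other proteoglycans, of which brain matrix genes are only a part, were measured beside the collagens. Of 18 tested genes on that list, 11 were higher and 1 lower in spinal cord, where 27.3% and 8.68% of all genes were, and 8 higher and 5 lower in hippocampus, where 28.0% and 12.9% were. Bcan, a lectican of the perineuronal matrix, had 179 ± 16.8 CPM in spinal cord and 123 ± 3.77 CPM in hippocampus (SD, n = 2 each), and Ncan had 187 ± 10.4 CPM in hippocampus. Hapln2, a link protein of nodes of Ranvier, differed by −2.18 ± 0.43 on the log2 scale in hippocampus against spinal cord (edgeR adjusted p = 0.0068).

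In bone marrow 7 of the 8 tested laminin chains, 2 of the 3 tested type IV clusters and both multiplexins were lower than in the other tissues. There 23 members were lower, where 14.3% of all genes were, and 2 were higher, where 19.6% were. With library totals 6 were higher, where 31.7% of all genes were, and 18 lower, where 8.50% were, and all 25 kept their sign. Without the female marrow library 2 members were higher and 14 lower, and without the male library 0 were higher and 14 lower. Laminins summed to 23.5 CPM in the male and 24.5 CPM in the female library. Lamb2 had 6.24 and 2.93 CPM, against 3.62 to 75.0 CPM elsewhere with a median of 30.3 CPM (log2 −2.77 ± 0.41, edgeR adjusted p = 2.5e-05). Col15a1 had 0 counts in both marrow libraries, so it was at least 9.54-fold lower than the mean of the other tissues, with a floor of 3 counts in each library. Col18a1 had 0 and 0.733 CPM and Col3a1 had 6.97 and 7.69 CPM.

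Other members were well expressed in marrow. Fn1 had 124 CPM in male and 110 CPM in female marrow, second to liver, though it was not called. The 2 higher members, named after their values were seen, were not separate from the other tissues. Col5a1, a regulatory fibrillar chain, had 34.1 and 18.7 CPM (log2 1.60 ± 0.33, edgeR adjusted p = 0.00079), overlapping stomach. Fbln5, an elastic fibre fibulin, had 22.4 and 16.9 CPM (log2 1.18 ± 0.34, edgeR adjusted p = 0.011), overlapping spinal cord. Both calls were lost without the male marrow library, with adjusted p-values of 0.108 for Col5a1 and 0.471 for Fbln5. Megakaryocyte markers, 7 genes found of 9, summed to 655 CPM in male and 599 CPM in female marrow, against 0.723 to 50.8 CPM elsewhere, and bone and cartilage markers to 99.4 and 105 CPM, with Ibsp at 45.8 and 48.4 CPM. Their part in these levels was not tested. On the receptor list 1 gene was higher and 10 were lower in marrow, the higher one being Cd44, the hyaluronan receptor. Mmp8 and Mmp9, neutrophil proteases that cut collagen and gelatin, were the 2 metalloproteinases called higher, at 132 ± 5.86 and 254 ± 23.1 CPM (SD, n = 2 each).

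In RefSeq (GRCm38.p6) Col4a1 and Col4a2 are neighbours on chromosome 8 on opposite strands, their starts within 2 kb. Counts of Col4a2 and Col4a1 were 102 and 85 in male and 69 and 67 in female hippocampus, and 8 and 8 in male and 17 and 17 in female pancreas. The ratio of Col4a2 to Col4a1 ran from 0.678 to 1.2 in liver, hippocampus, pancreas, parotid gland and spinal cord. It was 0.172 and 0.556 in marrow. Stomach stood apart, with ratios of 2.43 in the male and 0.290 in the female library. Nid1 exceeded Nid2 in all 14 libraries, with 16.1 and 27.3 CPM in stomach, where Nid2 had 0 and 3.03 CPM.

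On the other lists, counts are given as higher and lower against the other 6 tissues, beside shares of all genes of 6.33% and 3.24% in pancreas, 11.1% and 3.87% in parotid gland and 27.3% and 8.68% in spinal cord. These shares were 18.5% and 10.1% in liver, 28.0% and 12.9% in hippocampus and 19.6% and 14.3% in bone marrow. Of 13 processing genes, 2 were higher and 0 lower in pancreas and in parotid gland, 2 and 3 in spinal cord, and 3 and 2 in liver. In hippocampus 0 were higher and 6 lower, and in bone marrow 1 and 2. Of 18 proteoglycans, 3 were higher and 0 lower in parotid gland, 1 and 0 in pancreas, 4 and 2 in liver and 0 and 8 in bone marrow. Of 29 glycoproteins, 7 were higher and 0 lower in pancreas, 7 and 2 in parotid gland, 6 and 1 in spinal cord, 5 and 7 in liver, 6 and 10 in bone marrow and 6 and 7 in hippocampus. Vtn, the plasma protein vitronectin, was among those in liver, 7.89 higher on the log2 scale. Of 14 metalloproteinases and inhibitors, 7 were higher and 0 lower in spinal cord, 4 and 0 in parotid gland, 2 and 4 in liver, 2 and 4 in bone marrow, 2 and 2 in hippocampus and 0 and 1 in pancreas. Of 18 receptors, 5 were higher and 0 lower in parotid gland, 6 and 1 in spinal cord, 3 and 6 in hippocampus and 1 and 0 in pancreas. No gene of the 5 lists was called between male and female over the 7 tissues.

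Among the assembly enzymes, by the tags counted, P4ha1 was highest in hippocampus, Plod1 in spinal cord and liver, and Pcolce in stomach and spinal cord. The uncounted P4ha1 tag was highest in female stomach. Pcolce2 had 16.3 and 16.6 CPM in spinal cord, against 0 to 10.7 CPM elsewhere. P4hb, the partner subunit of prolyl 4-hydroxylase and a general disulphide isomerase, is on the processing list and stood at 483 ± 26.4 CPM in pancreas and 551 ± 287 CPM in liver (SD, n = 2 each). Cert1, which is no matrix gene, had 199.9 CPM in male and 214 CPM in female spinal cord, against 2.64 to 124 CPM elsewhere.

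No member differed between male and female over the 7 tissues after adjustment in the edgeR fit, while 4 had an unadjusted p under 0.05 and 0.0613% of all genes were called. The 4 were Col11a2, Col16a1, Col27a1 and Plod2. Within bone marrow, hippocampus, liver, pancreas, parotid gland and spinal cord no member was called either, with at most 2 members at an unadjusted p under 0.05 in each. The share of all genes called was 0% in bone marrow and pancreas, 0.00681% in hippocampus, parotid gland and spinal cord, and 0.0204% in liver.

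Between the male and the female stomach library 7 members were higher in male, where 12.4% of all genes were, and 13 were lower, where 14.7% were. The difference between stomach and the other 6 tissues in the male against female fold was called for 14 members, 3 higher, where 9.37% of all genes were, and 11 lower, where 12.9% were. A tissue has 1 library per sex, so these tests take the pair of stomach libraries to vary like the other pairs, and the differences have no replicate of their own. Col5a2, a partner chain of type V collagen, had 12.5 CPM in male and 289 CPM in female stomach (log2 −4.66). Lama5 had 18.7 CPM in male and 153 CPM in female stomach, and Col8a1, a short-chain network collagen, had 3.64 and 45.1 CPM. Col4a1 and Col4a2, which form 1 trimer, went opposite ways, with Col4a1 at 47.3 CPM in male and 123 CPM in female stomach and Col4a2 at 115 and 35.5 CPM.

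These differences moved with the base composition of the tags, so the tags are printed with G and C after the DpnII site in capitals.
Col5a2: gatcaaaaaataaatatGtt
Col8a1: gatcattaaatatCtCtaaa
Lama5: gatctGaaattaaaatGaCt
Col4a1: gatcCaataaaaGatGaatt
Col4a2: gatctaCCaGCCttGGCtCa
Col1a1: gatcGaGCtCaGaGGCGaaG
Lamc1, first tag: gatcaGaCCtGaGaGCCCCa
Lamc1, second tag: gatcCtCaGCtCGGtGGtCt
Col1a2, first tag: gatcCaaCtaaGtCtCCtCC
Col1a2, second tag: gatctGGGCaaCCtGGCCCa
The Col5a2 tag, with 1 G or C among 16 bases, had 10 counts in male and 636 in female stomach. The Col4a2 tag, with 9, had 213 counts in male and 80 in female stomach. Tags of 1 gene also disagreed. The first tag of Col1a2, with 8, had 138 counts in male and 254 in female stomach, while the second, with 11, had 54 and 7. The first tag of Lamc1, with 10, had 369 counts in male and 449 in female stomach. The second, also with 10, had 85 and 16, so tags of the same G and C count disagreed too.

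Over the 52 tested members, Spearman's rho between the G and C count of the most abundant tag and the male minus female difference in log2(CPM + 1) was 0.745 in stomach and between −0.18 and 0.32 in the other 6 tissues. Over all 14682 genes it was 0.605 in stomach and between −0.08 and 0.09 in the other 6 tissues. These are descriptions across genes, which share the same 2 libraries. The 11 members with at most 4 G or C had a median difference of −1.89, and the 7 with at least 10 had a median of 1.77. Stomach epithelium markers, all 9 found, summed to 245952 CPM in male and 93272 CPM in female stomach, and Pgc, the pepsinogen of chief cells, made 234060 and 84495 CPM of these. Atp4a had 3238 and 1168 CPM, Krt13 41.1 and 10.8 CPM, Krt5 197 and 102 CPM and Gkn1 880 and 566 CPM. Others were closer, with Muc5ac at 3493 and 3012 CPM, Cblif at 937 and 931 CPM and Tff1 at 542 and 752 CPM. Atp4b had 2564 and 2236 CPM. Krt13 and Krt5 were not particular to stomach. In the bone marrow, hippocampus and spinal cord libraries Krt13 had 130 to 219 CPM, above both stomach libraries, and Krt5 had 134 to 299 CPM. The part of tag composition in the difference between the sexes was not tested.

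**Figure D5:**
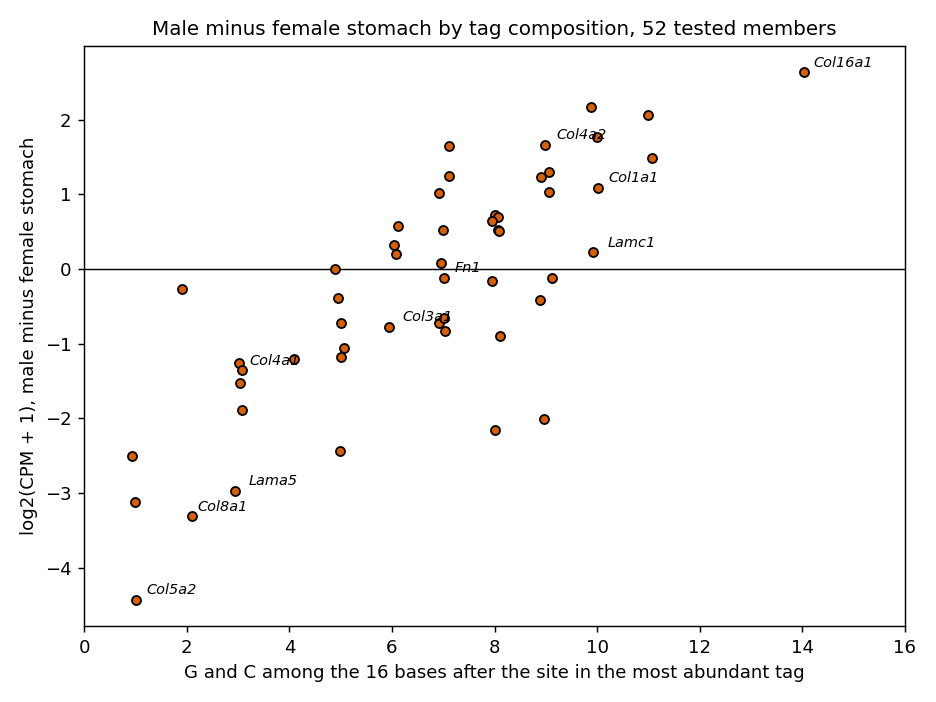
Male minus female stomach in log2(CPM + 1) (vertical) against the number of G and C among the 16 bases after the DpnII site in the most abundant tag (horizontal, jittered slightly), with 1 point per tested member. Col5a2, Col8a1 and Lama5, with few G or C, lie far below 0, and Col16a1, Col4a2 and Col1a1 lie above it.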

How the data were processed

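The deposited values are counts of 20-base tags next to DpnII sites, per library, as the authors made them by massively parallel signature sequencing, per the labels' protocols. The aligner, the annotation release and the legend of the tag classes were not given in the sources used here. Classes 1 to 4 were taken as sense tags of a gene and summed per UniGene cluster. Reads of overlapping or near-identical genes cannot be told apart, and Col4a4 is split over 2 clusters.

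Of 22221 genes, 14682 passed edgeR's filterByExpr by tissue. A quasi-likelihood model with tissue and sex was fitted on all 14 libraries with TMM scaling (6 residual degrees of freedom), with Benjamini-Hochberg adjustment over all genes tested. Comparisons within 1 tissue added an interaction term. SE is the fold divided by the root of F. Folds of genes with a tissue at 0 depend on the prior count, and for a gene at 0 in several tissues the test can return a p of 1. The labels do not say whether libraries come from 1 or several animals, so p-values measure the spread between libraries. Male and female share no pairing beyond tissue, and sex is the replicate block. The fit was tested on simulated data.

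Alternatives were library totals, DESeq2 size factors, DESeq2, limma voom, no filter, no sex term, the most abundant tag, tags of class 1 and leaving out each library. Members and lists were chosen with earlier results of these data known. Values per library are given for the 20 members with the highest mean CPM, for the highest separate members called in each tissue (up to 8), for the lower ones with the smallest adjusted p (up to 4), and for the 2 tissue pairs (up to 6 in each direction). All members of the types I, III, IV and VI collagens, laminins, nidogens, fibronectin and fibulins with at least 10 counts could be named too. Symbols were taken from accessions matched to RefSeq (29 of 67 members, all 29 with the same symbol) and otherwise from titles. Tools were Python 3.11.15, pandas 2.3.3, numpy 2.4.6, scipy 1.17.1, matplotlib 3.10.9, R 4.3.3, edgeR 4.0.16, limma 3.58.1 and DESeq2 1.42.0. Not every called member is reported here.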

Additional observations from a re-analysis of the deposited data

Results flagged for a closer look

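In 14 members the male against female difference in stomach differed from that in the other 6 tissues, by the interaction term of the edgeR fit, with 1 library per sex. Of these, 3 were higher, where 9.37% of all genes were, and 11 lower, where 12.9% were. Over the 52 tested members the male minus female difference in stomach moved with the G and C count of the most abundant tag, with Spearman's rho at 0.745, and its part was not tested. On the log2 scale the difference was 2.50 for Col16a1, 1.37 for Col1a1 and 1.53 for Col4a2. It was −4.72 for Col5a2, −3.85 for Col8a1, −3.78 for P4ha1, −3.45 for Lama5 and −2.69 for Fbln2. It was −2.50 for Cert1, −1.87 for Col6a3, −1.38 for Col4a1 and −1.10 for Lamb2. Nid2 and Pcolce2 had fitted values of −6.44 and −6.45, which depend on the prior count because male stomach had 0 counts of both. With a floor of 3 counts in male stomach, it was 1.94-fold lower than female stomach for Nid2 and 2.22-fold lower for Pcolce2. These folds take the female level as measured, so they are not full bounds. Female stomach had only 7 counts of Nid2, which carry counting error too. For male against female in stomach Nid2 was not called (edgeR adjusted p = 0.0528).

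Tags of the members outside the classes counted also held signal. Reverse-strand tags summed to 2848 counts over 63 members, of which Col1a1 had 467 and Fn1 308. A Col1a1 tag of class 24 had 703 counts, with 88 to 168 in each of the bone marrow, hippocampus and spinal cord libraries and 0 in the other 8. An Fn1 tag of class 6 had 785 counts, with 274 in male and 249 in female liver. A P4ha1 tag of class 23 had 2816 counts, with 27 in male and 1182 in female stomach.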

How the results depend on the processing

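Over the 189 called values of members, 4038 alternative values were computed, of which 3639 kept their direction and side of the threshold, 392 lost the call and 7 changed sign. With library totals the log2 value was −1.11 for Col3a1, −1.03 for Col6a3 and −0.06 for Ccbe1 in pancreas, and 0.46 for Fn1 and 0.49 for Lamc1 in spinal cord. In stomach, leaving out 1 stomach library gave −0.52 to 4.21 for Col5a2 and −0.70 to 3.15 for Col8a1, the lower value without the female library. With library totals the members called numbered 30 in pancreas (5 with TMM), 14 in parotid gland (23), 37 in spinal cord (18) and 28 for pancreas against parotid gland (4). Pancreas had 9 under DESeq2, limma voom and no filter alike. Limma voom gave 8 for pancreas against parotid gland. For male against female in stomach DESeq2 gave 10 and limma voom 13 (main value 20), and for the difference of stomach DESeq2 gave 8 (main value 14). Without the replicate block of sex, 26 members were called in bone marrow, 24 in hippocampus, 17 in liver, 5 in pancreas, 22 in parotid gland, 18 in spinal cord and 32 in stomach, and Fn1 in pancreas lost its call (adjusted p = 0.0603). The median of all genes moved with library totals to 0.37 in bone marrow, 1.46 in hippocampus, −3.26 in pancreas, −1.03 in parotid gland, 1.69 in spinal cord and 0.53 in stomach on the log2 scale. The cause of these shifts was not tested.

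Leaving out 1 library gave 14 to 28 members in bone marrow, 15 to 27 in hippocampus, 11 to 20 in liver, 4 to 9 in pancreas, 11 to 28 in parotid gland, 8 to 24 in spinal cord and 29 to 33 in stomach. It gave 3 to 18 for hippocampus against spinal cord, with 18 without either stomach library, and 0 to 6 for pancreas against parotid gland. Pancreas had 9 without either stomach library. The difference of stomach had 11 to 15, male against female in stomach 15 to 21, the same in liver 0 to 1, and differences among tissues 51 to 56. Sex over the 7 tissues and in the other 5 tissues stayed at 0 to 0 calls. The 15 untested members had at most 69 counts.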
